A study of Rattus norvegicus with 8 samples.

Results

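The miR-29 family was measured in the prostatic urethra of rats with and without a laser wound. Its members were taken by name: every array feature whose name begins with rno-miR-29a-, rno-miR-29b- or rno-miR-29c-, which were 7 of the 758 rat miRNAs on the array. Of these 7 strands, 4 were detected on at least 4 of the 8 arrays and could be tested, namely rno-miR-29a-3p, rno-miR-29b-3p, rno-miR-29c-3p and rno-miR-29c-5p (rno marks the rat and is left off below). The other strands, miR-29a-5p, miR-29b-1-5p and miR-29b-5p, were detected on 0 of 8 arrays.

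The tissue came from male SD rats (Sprague Dawley, an outbred laboratory strain) of 10 to 12 months, 5 days after surgery. In the TULP group (transurethral laser prostatectomy, simulated here), a thulium laser had vaporized the surface of the prostatic urethra. The sham group had its abdomen opened and received no laser. Each group held 4 rats with 1 array each, so n = 4 throughout. The labels are in conflict. The titles, source names and treatment entries separate trauma from control tissue, but the descriptions of the TULP samples name a sham operation, and the protocol field of the control samples names the laser operation. Every difference below rests on the titles.

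miR-29 strands are short RNAs that base-pair with messenger RNAs and lower their translation or stability. The family is known for messenger RNAs of the extracellular matrix, among them those of collagens, fibrillin and elastin, and is therefore called antifibrotic. Each hairpin precursor gives a guide strand, which is the usual active product and here carries the ending 3p, and a passenger strand, here 5p, which is mostly degraded.

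The sequences of the guide strands show what the members share and how they can be told apart on an array. They are given 5′ to 3′ as RefSeq lists them, with the seed (bases 2 to 8, which choose the targets) in capitals.
miR-29a-3p: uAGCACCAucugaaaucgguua
miR-29b-3p: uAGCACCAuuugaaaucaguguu
miR-29c-3p: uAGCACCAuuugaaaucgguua
All 3 guides had the seed AGCACCA. Counted from the 5′ end of miR-29c-3p, miR-29a-3p differed by U10C alone. miR-29b-3p differed by G18A, U21G and A22U, and had 1 more base at its 3′ end.

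The 4 passenger strands had other seeds, and no seed was shared among them.
miR-29c-5p: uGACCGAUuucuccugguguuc
miR-29a-5p: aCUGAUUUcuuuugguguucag
miR-29b-1-5p: uUUCAUAUggugguuuagauuu
miR-29b-5p: cUGGUUUCacaugguggcuuag

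Both strands of miR-29c lie in 1 hairpin of 88 bases, shown here with the passenger strand and then the guide strand in capitals.
Mir29c hairpin: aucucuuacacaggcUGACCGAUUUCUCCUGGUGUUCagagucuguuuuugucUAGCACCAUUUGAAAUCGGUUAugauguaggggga
In the RefSeq annotation of build GRCr8, Mir29c lies at chr13:109099359-109099446 on the plus strand. Mir29b2 lies 447 bases away from it at chr13:109098831-109098911, and both are inside the lncRNA gene LOC102550527. The other pair lies on the minus strand of chromosome 4, with Mir29a at chr4:60617955-60618042 and Mir29b1 at chr4:60618334-60618414, 291 bases apart. Mir29b1 and Mir29b2 give the same guide, so miR-29b-3p cannot be assigned to either locus, whereas miR-29a-3p comes from the pair on chromosome 4 and miR-29c-3p from the pair on chromosome 13.

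The array reads each strand with 2 or 4 different probes. The longer probe of each guide is shown because the members differ at so few bases. Capitals mark the bases at which a probe differs from the complement of miR-29c-3p, or lies beyond its end.
miR-29a-3p probe: taaccgatttcaGatggtgc
miR-29b-3p probe: AACacTgatttcaaatggtgct
miR-29c-3p probe: taaccgatttcaaatggtgcta
The probe of miR-29a-3p covered bases 3 to 22 of its guide, that of miR-29b-3p bases 2 to 23, and that of miR-29c-3p bases 1 to 22. Over the bases that both cover, the miR-29a-3p and miR-29c-3p probes differ at 1 base, and how far each probe also binds the other guide was not tested.

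The arrays detected 136 to 156 miRNAs each, and 0 of 12128 spots were saturated on any of them. Summed over detected miRNAs, the signal ranged from 21075 to 37357 in the sham group and from 16787 to 19464 in the TULP group, a ratio of means of 1.59. Quantile normalization, which gives all arrays the same set of values, removes such a difference, so the normalized values describe a strand relative to the rest of its array. All 8 arrays lay on 1 slide in 2 rows. Sham 4 shared a row with TULP 1, 2 and 3, and TULP 4 shared a row with sham 1, 2 and 3, so row and group overlap in part.

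Before normalization, the signal of every guide had a lower mean in the TULP group. miR-29a-3p read 275, 341, 353 and 371 in the sham group and 282, 228, 215 and 209 in the TULP group (linear units, replicates 1 to 4 in each group). The groups overlapped only through sham 1 and TULP 1. The signal of miR-29b-3p was 99.5, 127, 137 and 100.1 in the sham group and 95.7, 98.2, 87.5 and 78.5 in the TULP group, without overlap. The signal of miR-29c-3p was 64.9, 86.7, 94.6 and 73.3 in the sham group and 53.2, 34.4, 31.9 and 33.8 in the TULP group, again without overlap, and TULP 1 was the highest of the TULP arrays. The summed signal of the arrays was without overlap too. The share of all miRNAs without overlap before normalization was not counted, so whether the lack of overlap is particular to these guides cannot be told. For miR-29b-3p it rests on the narrow gap between sham 1 (99.5) and TULP 2 (98.2). The ratios of the sham mean to the TULP mean were 1.43 for miR-29a-3p, 1.29 for miR-29b-3p and 2.09 for miR-29c-3p, beside 1.59 for the summed signal. The different probes of each guide gave like ratios: 1.44 and 1.43 for miR-29a-3p, 1.29 and 1.28 for miR-29b-3p, and 2.19 and 2.00 for miR-29c-3p. In tissue samples of this kind, fewer cells of a type and less RNA per cell cannot be told apart.

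After normalization, miR-29c-3p, the guide of the chromosome 13 hairpin, was lower in the TULP group without passing the test. Its normalized signal was 6.09, 6.09, 6.24 and 5.68 in the sham group and 5.94, 5.35, 5.35 and 5.40 in the TULP group on the log2 scale. Equal values mean that the strand held the same rank on those arrays. TULP 2, 3 and 4 lay below all sham arrays, and TULP 1 lay above sham 4, so the groups overlapped. The means were 6.03 ± 0.24 (SD, n = 4) and 5.51 ± 0.28 (SD, n = 4). The difference was -0.52 with an SE of 0.18 and a 95% interval of -0.94 to -0.09, a fold of 0.699 (limma, unadjusted p = 0.0233, adjusted p = 0.0675 over the 151 miRNAs tested). This call rested on single arrays: without TULP 1 the difference was -0.69 (adjusted p = 0.0151) and without sham 4 it was -0.63 (adjusted p = 0.0428). With the slide row as a block it was -0.44 (adjusted p = 0.207), and it was -0.13 within the row of sham 4 and -0.74 within the row of TULP 4.

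miR-29b-3p, the guide made by both loci, had a higher mean in the TULP group but did not pass the test. Its normalized signal was 6.76, 6.69, 6.76 and 6.09 in the sham group and 6.69, 6.98, 7.10 and 6.91 in the TULP group (log2). Sham 4 was far below the other sham arrays, and TULP 1 lay among them. The means were 6.58 ± 0.32 and 6.92 ± 0.17 (SD, n = 4 each), and the difference was 0.34 with an SE of 0.18 and a 95% interval of -0.08 to 0.76 (limma, adjusted p = 0.198). Within the slide rows it was 0.83 in the row of sham 4 and 0.17 in the other.

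miR-29a-3p, the guide of the other hairpin on chromosome 4, had the smallest difference of the guides. Its normalized signal was 8.17 on sham 1, 2 and 3 and 7.92 on sham 4, and it was 8.17, 8.17, 8.24 and 8.24 on the TULP arrays (log2). It therefore held the same rank on 3 sham and 2 TULP arrays. The means were 8.11 ± 0.12 and 8.20 ± 0.04 (SD, n = 4 each). The difference was 0.10 with an SE of 0.09 and a 95% interval of -0.11 to 0.31, that is, a fold between 0.925 and 1.24 (limma, adjusted p = 0.514).

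**Figure D1:**
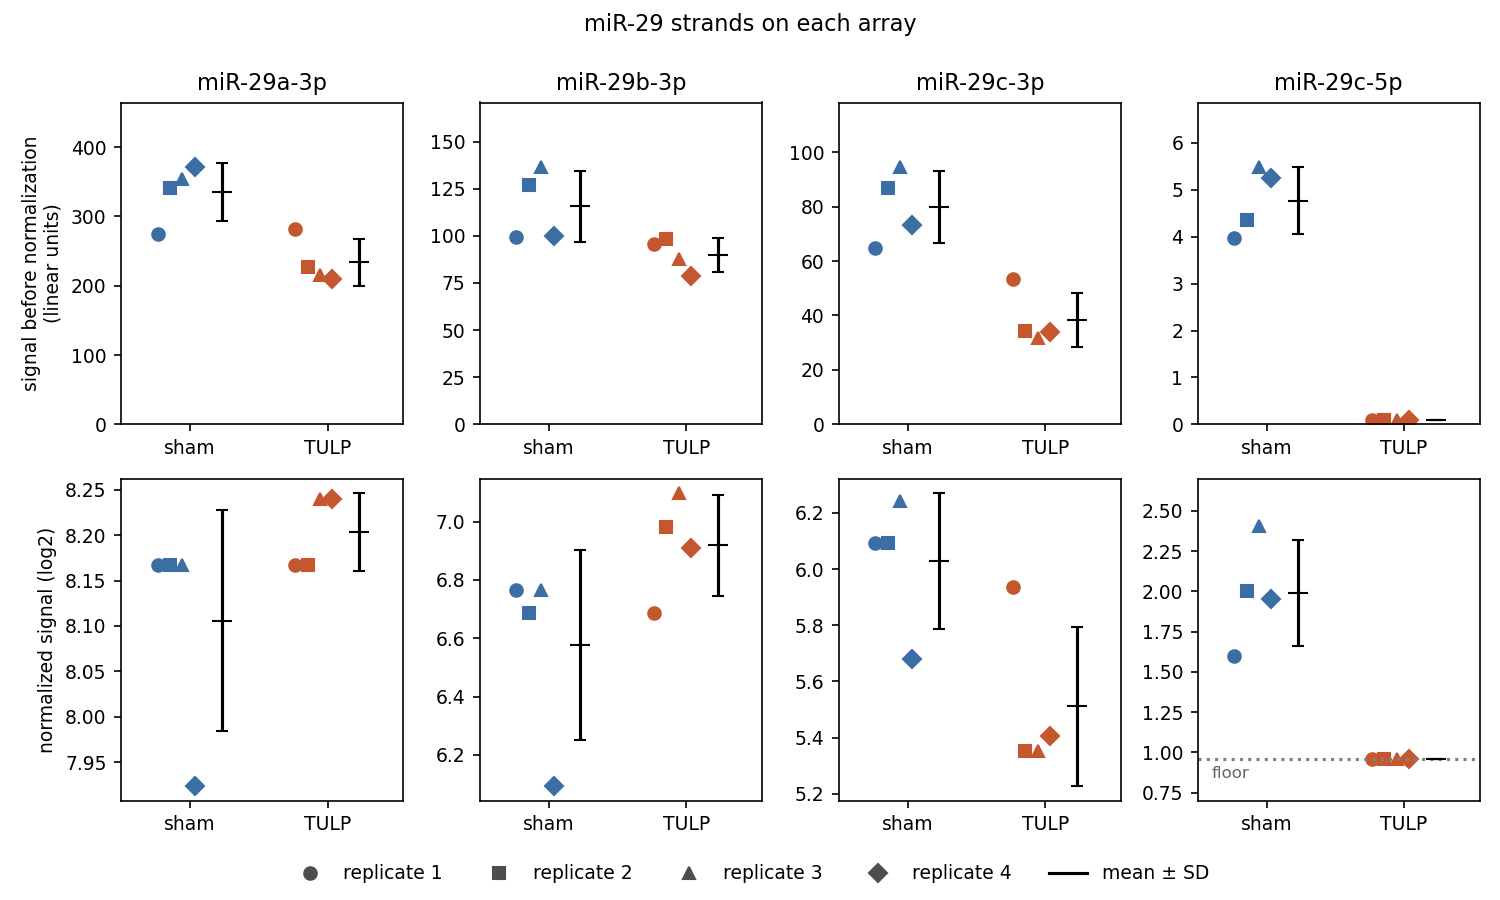
Signal of the 4 tested miR-29 strands on each array before normalization (upper panels, linear units) and after quantile normalization (lower panels, log2), with blue symbols for sham and orange symbols for TULP arrays and bars for the mean ± SD (n = 4). The linear signal of miR-29c-3p runs from 64.9 to 94.6 in the sham group and from 31.9 to 53.2 in the TULP group, and miR-29c-5p, undetected on all TULP arrays, is drawn there at the value of 0.1 that the software gives undetected miRNAs and at the floor of 0.96 in the lower panel.

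The direction of miR-29a-3p and miR-29b-3p depended on how the arrays were scaled, whereas miR-29c-3p was lower in the TULP group under every setting plotted. Without any normalization the median over all tested miRNAs was -0.55 (log2, TULP minus sham), and the guides were at -0.52 (miR-29a-3p), -0.35 (miR-29b-3p) and -1.08 (miR-29c-3p). With each array scaled to its labelling spike-ins, synthetic RNAs added before labelling, that median was -0.78, and the guides were at -0.75, -0.58 and -1.31. The adjusted p of miR-29c-3p was 0.00675 and 0.00213 under these settings and that of miR-29a-3p was 0.073 and 0.00732. Relative to the median of all tested miRNAs, miR-29c-3p was lower and miR-29b-3p higher under both settings as well as after quantile normalization, where that median was -0.02.

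**Figure D2:**
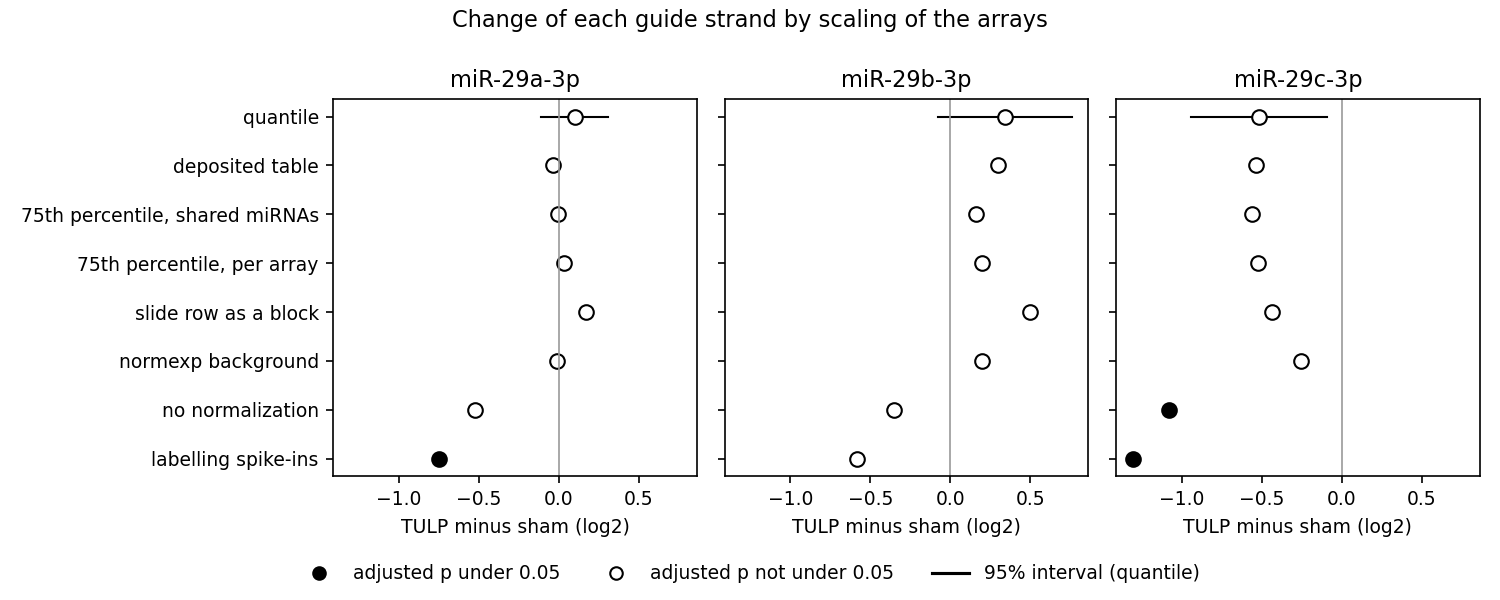
Difference between the TULP and the sham group (log2, x axis) for each guide strand under 8 ways of scaling or fitting the same 8 arrays (y axis), with filled circles where the adjusted p was under 0.05 and a line for the 95% interval of the quantile-normalized fit. miR-29c-3p lies left of 0 in every row, from -0.25 to -1.31, while miR-29a-3p and miR-29b-3p lie left of 0 at -0.52 and -0.35 without normalization and at -0.75 and -0.58 with spike-in scaling.

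Of the 3 guides, all detected on the 8 arrays, 0 passed the adjusted p with limma, beside 46 of the 151 miRNAs tested (30.5%), of which 25 were lower in the TULP group (16.6% of those tested) and 14 also differed by more than 2-fold (9.27%). At an unadjusted p under 0.05 the count was 1, miR-29c-3p, and the methods' t-test with adjustment gave 0. The normalized groups of 0 of the 3 guides were without overlap, beside 29.1% of the tested miRNAs.

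The guides were next compared with each other within each array, which asks whether members with the same seed changed by the same amount. A total of 4 pairs of strands was compared by two-sided exact permutation tests over the 8 arrays, with p-values adjusted over the 4 pairs. With 4 arrays against 4 the smallest possible p is 0.0286, and a single pair at that value cannot go below 0.114 after adjustment.

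miR-29b-3p exceeded miR-29c-3p by 0.67, 0.59, 0.52 and 0.41 in sham rats and by 0.75, 1.63, 1.74 and 1.51 in TULP rats (log2). All TULP arrays lay above all sham arrays, TULP 1 by the smallest margin. The means were 0.55 ± 0.11 and 1.41 ± 0.45 (SD, n = 4 each), and the change of 0.86 had p = 0.0286, the smallest the exact test can give (adjusted p = 0.114). The change was 0.96 within the slide row of sham 4 and 0.91 within the other row. Without normalization it was 0.72, again without overlap (exact p = 0.0286, adjusted p = 0.0571), a value that no scaling of whole arrays can alter.

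For miR-29a-3p minus miR-29c-3p the values were 2.07, 2.07, 1.92 and 2.24 in sham rats and 2.23, 2.81, 2.89 and 2.84 in TULP rats. TULP 1 fell inside the sham range, and the other TULP arrays lay above it. The change of 0.61 had an exact p of 0.0571 (adjusted p = 0.114). The difference between miR-29a-3p and miR-29b-3p, neighbours on chromosome 4, changed by -0.24 (exact p = 0.143, adjusted p = 0.143), and the groups overlapped.

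The adjusted p of these pairs turned on TULP 1, in each pair the TULP array closest to the sham values. Without it the changes were 1.09 for miR-29b-3p minus miR-29c-3p, 0.79 for miR-29a-3p minus miR-29c-3p and -0.30 for miR-29a-3p minus miR-29b-3p. Each then had the smallest exact p that the remaining arrays allow, and an adjusted p of 0.0381 (exact permutation test). For miR-29b-3p minus miR-29c-3p the exact p was already the smallest with TULP 1. Its lower adjusted p came from the other pairs.

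**Figure D3:**
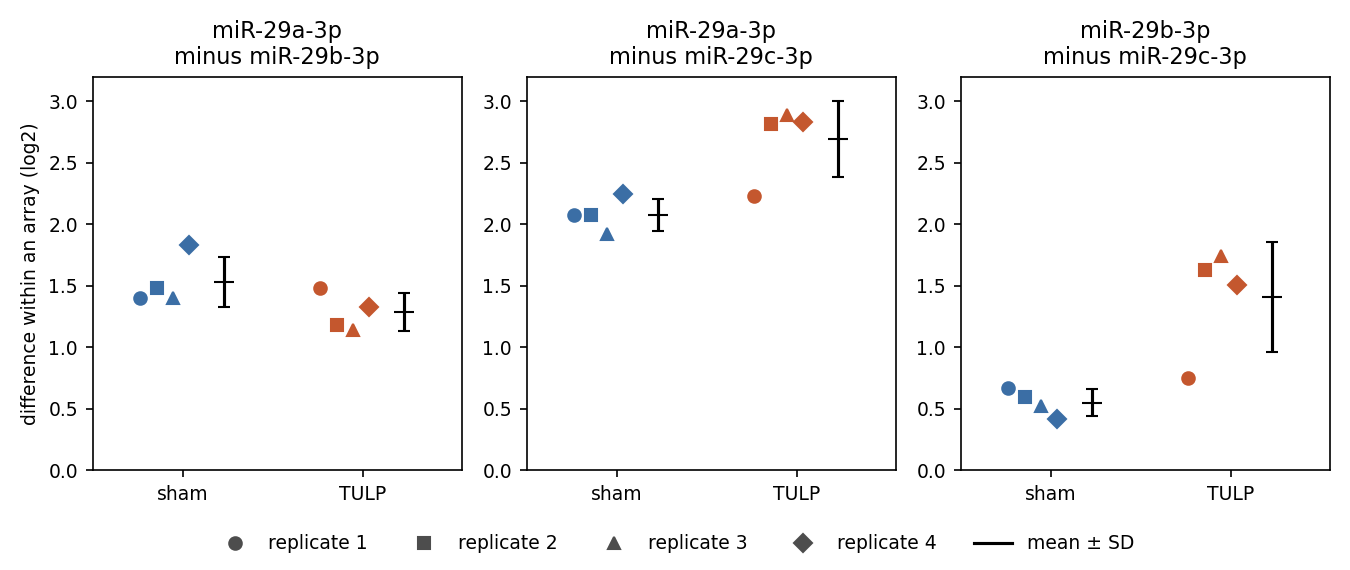
Difference in normalized signal between the members of each guide pair within an array (log2, y axis), with a symbol for each replicate and bars for the mean ± SD (n = 4). For miR-29b-3p minus miR-29c-3p the sham arrays span 0.41 to 0.67 and the TULP arrays 0.75 to 1.74, with TULP 1 nearest to the sham group.

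The passenger strand miR-29c-5p was detected on 4 of 4 sham arrays and on 0 of 4 TULP arrays. It entered the test only through its sham detections, and its undetected TULP values were all set to the same floor, so its passing the test and the lack of overlap follow from the filter and the floor and are not counted as results. Its normalized signal was 1.60, 2.00, 2.40 and 1.96 on the sham arrays (log2) and lay at the floor of 0.96 on all TULP arrays, without a measured spread. The sham mean was 1.99 ± 0.33 (SD, n = 4), and the difference from the floor was -1.03 with an SE of 0.16 (limma, adjusted p = 0.00539). That p is against a constant, and neither it nor the difference is a measured fold or error. The difference was 0 with a floor 4 times as high. For an estimate, each TULP array was set to the largest of the strand's own undetected signal, the lowest detected signal of the array and the floor. The TULP mean was then 1.55, which is 1.36-fold below the sham mean. On TULP 1 the value set in this way was 2.39, above the sham mean, so this fold is not a lower bound.

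All signals of miR-29c-5p were close to the detection limit. The software calls a probe detected when its signal exceeds 3 times its own error. The probe that carried the calls, which matches bases 2 to 22 of the strand, read 3.98, 4.36, 5.48 and 5.25 on the sham arrays, or 3.31, 3.17, 4.30 and 3.90 times its error. It read 3.71, 2.48, 2.55 and 2.50 on the TULP arrays, or 2.54, 1.87, 1.88 and 1.94 times its error. All sham signals of this probe were above all TULP signals, as was the summed signal of the arrays. The probe was singled out by its sham detections, so this lack of overlap is not counted as a result. Sham 1 and TULP 1 differed by less than the error of either, which was 1.20 and 1.46. The ratio of the group means was 1.70, beside 1.59 for the summed signal of the arrays and 2.09 for the guide of the same hairpin.

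The other probe of miR-29c-5p, which is shorter by 1 base, was never above 3 times its error. It read 1.50 to 1.87 in the sham group and 0.66 to 1.63 in the TULP group, so the groups overlapped. When both probes were summed whether detected or not, the normalized difference was -0.77 (limma, adjusted p = 0.0327). With normexp background correction, which models the background and adds an offset of 50, it was -0.05 (adjusted p = 0.121). The strand entered both of these fits only through its sham detections, so neither p is counted as a result.

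**Figure D4:**
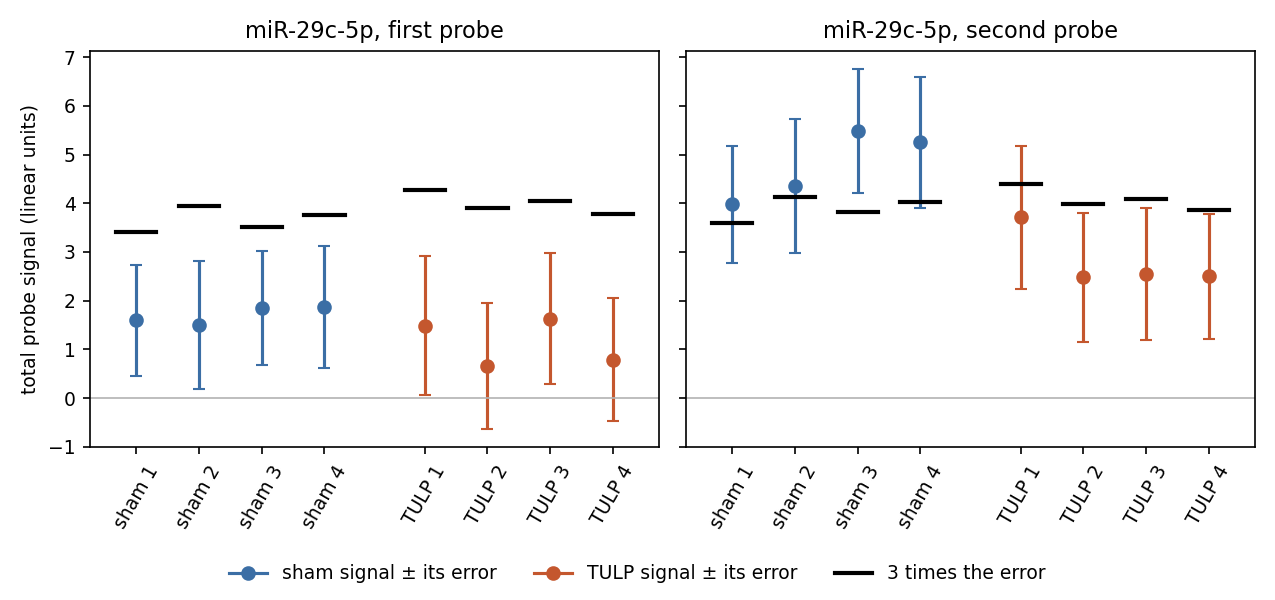
Total signal of the 2 probes of miR-29c-5p on each array (linear units, y axis) with the error that the software gives for each signal, and a black line at 3 times that error, above which a probe is called detected. On the second probe the sham signals of 3.98 to 5.48 lie above their lines and the TULP signals of 2.48 to 3.71 lie below theirs, while the first probe lies below its line on all 8 arrays.

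Whether miR-29c-5p and miR-29c-3p changed alike cannot be told from these arrays. On the TULP arrays the difference between them is the floor minus miR-29c-3p, and its change moved with the floor, from -0.51 (two-sided exact permutation test, p = 0.114, adjusted p = 0.143) to 0.52 with a floor 4 times as high and -4.80 with none beyond 0.1.

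The stored total that the software gives for miR-29c-5p was not used. On each sham array it was equal, to within 0.00056, to the sum of the miR-29c-5p probe and of the miR-29c-3p signal. On sham 1, for example, the stored total was 68.9, made of 3.98 and 64.9. The stored totals of the 3 guides were equal to the sums of their own probes to within 0.0007.

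The passenger strands of miR-29a and miR-29b stayed at background. The highest signal of any of their probes was 1.58 for miR-29a-5p, 1.15 for miR-29b-1-5p and 0.245 for miR-29b-5p, which were at most 2.15, 1.75 and 0.394 times the error. The probes of miR-29b-5p matched between 13 and 16 bases, and those of the other strands between 19 and 22. No fold is given for these 3 strands.

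The array also measured annotated miRNAs encoded opposite the guides. miR-3556a is the exact reverse complement of bases 1 to 18 of miR-29a-3p, miR-3587 that of bases 3 to 23 of miR-29b-3p, and miR-3556b that of bases 1 to 20 of miR-29c-3p. All were detected on 0 of 8 arrays, with a highest probe signal of 0.134, 0.858 and 0.854. The guide probes gave signals of 14.2 or more on every array, and the probes for the opposite strand gave none above their error.

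The miRNAs whose normalized levels ran most like each guide over the 8 arrays differed between miR-29c-3p and the others. By Pearson correlation (n = 8 arrays, a description, since arrays of a group share their treatment), miR-29c-3p was nearest to miR-200a-3p (r = 0.980), miR-26b-5p (r = 0.913) and miR-375-3p (r = 0.899). miR-200a-3p and miR-375-3p are known from epithelial cells. They were at -0.71 (adjusted p = 0.0874) and -2.03 (adjusted p = 0.0675, detected on 1 of 4 TULP arrays), and miR-26b-5p fell by 0.43 (adjusted p = 0.0385, limma, log2, TULP minus sham). Of the 8 epithelial miRNAs tested, 0 passed, with a median change of -0.70 and miR-200b-3p at 0.00. miR-29a-3p and miR-29b-3p were each nearest to miR-1896 (r = 0.813 and 0.855), miR-1306-3p (r = 0.740 and 0.812) and miR-1224 (r = 0.708 and 0.790). Between the guides, r was 0.938 for miR-29a-3p with miR-29b-3p, -0.140 for miR-29a-3p with miR-29c-3p and -0.335 for miR-29b-3p with miR-29c-3p. miR-29a-3p had tied values on most arrays, and sham 4 was the lowest array for both miR-29a-3p (7.92) and miR-29b-3p (6.09). How far the r of these guides and their nearest miRNAs rest on sham 4 was not tested.

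Among other miRNAs known to restrain fibrosis, some fell and the rest did not pass the test. Of 14 such miRNAs outside the family, 12 were tested, of which 4 fell, 0 rose and 8 did not pass. Their median change was -0.57, against -0.02 over all 151 tested miRNAs, of which 21 rose and 25 fell. miR-101a-3p was detected on 4 of 4 sham and 0 of 4 TULP arrays. It was 1.94-fold lower when estimated as for miR-29c-5p, which is not a strict bound. It is counted among the 4, but it too entered the test only through the sham group, and its adjusted p of 0.0124 is against a constant floor. miR-24-3p was at 0.13 (adjusted p = 0.375). Of 8 miRNAs known to promote fibrosis, 7 were tested, of which 5 rose and 2 did not pass, with a median change of 0.92. miR-21-5p, which is induced in many wounded tissues, rose by 1.76 with an SE of 0.15 (adjusted p = 0.000785). It held rank 1 on every TULP array and ranks 6 to 10 on the sham arrays, so after quantile normalization its TULP values are the same number and the size of the rise is limited by the rank. miR-221-3p, detected on 3 of 4 sham and all TULP arrays, rose by 1.69 (adjusted p = 0.0379). Without normalization, where 48 of all 151 miRNAs fell and 5 rose, 8 of the 12 antifibrotic miRNAs fell and 1 of the 7 profibrotic miRNAs rose, and miR-221-3p did not pass (adjusted p = 0.0699), while miR-21-5p rose by 1.28. All these p-values are from limma over the 151 tested miRNAs.

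Some markers of cell types also differed between the groups, and their part in the miR-29 values was not tested. Of 11 epithelial miRNAs, 8 were tested, 0 passed in either direction and the median change was -0.70, with miR-200b-3p at 0.00. Their summed normalized level was 496 to 681 in the sham group and 390 to 950 in the TULP group (linear units), and miR-182 was undetected throughout. Without normalization 4 of these 8 fell, beside 48 of all 151 tested miRNAs, and with spike-in scaling 6 fell, beside 82 of the 151. Of 6 leukocyte miRNAs, 5 were tested and 2 rose, namely miR-223-3p by 2.10 (adjusted p = 0.00313) and miR-142-3p by 2.01 (adjusted p = 0.0163; detected on 2 of 4 sham arrays). miR-150-5p, known from lymphocytes, was at -0.59 (adjusted p = 0.0737), and it fell by 1.03 without normalization and by 1.26 with spike-in scaling. Their summed level was 58.7 to 80.9 in the sham group and 98.5 to 168 in the TULP group, and miR-142-5p was undetected throughout. Of 7 striated muscle miRNAs, 4 were tested and 3 fell, among them miR-1-3p by 0.74 (adjusted p = 0.0201). The remaining tested member, miR-206-3p, was at 0.25 (adjusted p = 0.795). The summed level of the striated muscle list was 4043 to 5659 and 2639 to 4637, with the cardiac miR-208a-3p, miR-208b-3p and miR-499-5p undetected. Of 3 erythroid miRNAs, 2 were tested and miR-486 fell by 0.79 (adjusted p = 0.0498), with a summed level of 62.0 to 99.3 and 34.5 to 79.7 and miR-144-3p undetected. The 2 smooth muscle miRNAs and the 1 tested endothelial miRNA of 2 did not pass, but with spike-in scaling all of them fell (median of -1.11 for smooth muscle, and -0.80 for miR-126a-3p). miR-143-3p was at 0.07 (adjusted p = 0.905) and miR-126a-3p at 0.01 (adjusted p = 0.992). The summed levels were 648 to 928 and 634 to 1315 for smooth muscle and 116 to 152 and 116 to 137 for endothelium, where miR-126a-5p was undetected. A total of 7 miRNAs stood on 2 lists each, among them miR-200a-3p and miR-200b-3p as epithelial and antifibrotic. Another was miR-133a-3p, as striated muscle and antifibrotic. It fell by 0.96 (limma, adjusted p = 0.00605) and is counted among the fallen miRNAs of both lists.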

How the data were processed

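miRNAs of 8 rat tissues were measured on 1-colour Agilent arrays. Per the file headers, spot intensity was read with Agilent Feature Extraction 10.7.1.1, which subtracted background and deposited a total signal and an error for each probe. A second source, deposited by the authors, holds quantile-normalized log2 values and served as an alternative. The signal of a miRNA was rebuilt as the sum of its probes whose signal exceeded 3 times their error. It was quantile normalized over 758 rat miRNAs, raised to a floor of 1.94 (the lowest detected value of each array, taken as the median of the 8) and converted to log2. The 151 miRNAs detected on at least 4 of 8 arrays were tested with limma 3.58.1 in R 4.3.3, with Benjamini-Hochberg adjustment and a threshold of 0.05. The procedure was tested on simulated data. The estimated fold of a strand undetected in the TULP group used, on each array without detection, the largest of 3 values: the signal of the strand itself, the lowest detected signal and the floor. It is no strict bound, because none of these is the probe's own limit of 3 times its error. Pairs of strands were compared by two-sided exact permutation tests over 70 labellings. The number of arrays limits the precision. The family and the lists were chosen with earlier results of these data known. Beyond the family, miRNAs named are the 3 most correlated with each guide, the list members past the adjusted p and 2-fold, and the member of each list with the highest mean signal. Undetected list members, miR-133a-3p, miR-150-5p, miR-206-3p and the miRNAs encoded opposite the guides were added after their values were seen. Sequences and loci are from RefSeq (GRCr8), which holds all 7 strands. Probe positions in the files refer to rn4 and are not printed.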

Additional observations from a re-analysis of the deposited data

Results flagged for a closer look

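In 15 groups of 4 arrays (strands and within-array differences between strands), 5 had an array whose gap to its nearest neighbour took up more of the group's range than Dixon's limit for 4 values allows. Chance alone gives such a gap in about 5% of groups of continuous values, and these values are not independent of each other. Quantile normalization also ties values by rank, as for miR-29a-3p on the sham arrays other than sham 4, where any deviation of sham 4 exceeds the limit. The 5% therefore does not hold for these groups. After normalization, sham 4 was low for miR-29a-3p (7.92, log2) and miR-29b-3p (6.09). Before it, sham 4 had the highest miR-29a-3p signal of all arrays (371), and its miR-29b-3p signal (100.1) was near that of sham 1 (99.5). Its summed signal of 37357 was also the highest. TULP 1 was high for miR-29c-3p (5.94), low for miR-29a-3p minus miR-29c-3p (2.23) and low for miR-29c-5p minus miR-29c-3p (-4.98), the last of which repeats miR-29c-3p because miR-29c-5p was at the floor.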

How the results depend on the processing

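Of the changes of single strands, that of miR-29c-3p was negative under all 35 alternatives (-0.25 to -1.31), and that of miR-29b-3p turned negative under 2 of 35, without normalization (-0.35) and with spike-in scaling (-0.58). miR-29a-3p turned negative under 8 of 35: stored totals (-0.052), normexp (-0.014), the 75th percentile of miRNAs detected on all arrays (-0.0061), no normalization (-0.52), spike-ins (-0.75), control features kept (-0.035), and the deposited table with limma (-0.035) and with the methods' t-test (-0.035). miR-29c-3p passed the adjusted p with stored totals (-0.85), without normalization (-1.08), with spike-ins (-1.31), with trend and robust moderation (-0.52, adjusted p = 0.0465), and without sham 4 or TULP 1 (with the 8-array normalization kept, -0.63 and -0.66). For miR-29c-5p, whose TULP values are a constant floor in nearly all settings, a repeated pass says nothing of stability, and it did not pass with normexp (-0.055) or with a floor 4 times as high (0). It could not be tested where detection on all 8 arrays was required, nor without a sham array with all steps rerun.

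Leaving out each array in turn gave 0.04 to 0.12 for miR-29a-3p, 0.18 to 0.42 for miR-29b-3p, -0.69 to -0.43 for miR-29c-3p and, with the tested miRNAs kept, -1.16 to -0.89 for miR-29c-5p. The pair changes ranged from -0.31 (with all steps rerun, -0.30) to -0.14 for miR-29a-3p minus miR-29b-3p, 0.55 to 0.79 for miR-29a-3p minus miR-29c-3p, 0.75 to 1.09 for miR-29b-3p minus miR-29c-3p and -0.73 to -0.36 for miR-29c-5p minus miR-29c-3p, and without TULP 1 but with the 8-array normalization they were -0.31, 0.77 and 1.08 for the first 3 pairs. With stored totals, the adjusted p (exact permutation test) was 0.0381 for miR-29a-3p minus miR-29c-3p (0.80), miR-29b-3p minus miR-29c-3p (0.99) and miR-29c-5p minus miR-29c-3p (-3.65). It was the same with the 75th percentile of each array (0.56, 0.72 and -0.50). Without normalization the guide pairs had the same changes, 0.56 and 0.72, at an adjusted p of 0.0571. The lower adjusted p arose because the miR-29c-5p pair also reached the smallest exact p. That pair rests on the TULP floor and, with stored totals, on a total that includes miR-29c-3p. These passes are therefore not counted as results. The change of miR-29c-5p minus miR-29c-3p reversed with normexp (0.20), spike-ins (0.045) and the higher floor (0.52). With normexp the guide pairs kept their direction at smaller changes. These were 0.24 for miR-29a-3p minus miR-29c-3p, 0.45 for miR-29b-3p minus miR-29c-3p and -0.21 for miR-29a-3p minus miR-29b-3p (exact permutation test, adjusted p = 0.0571, 0.0571 and 0.114).

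The count of tested miRNAs past the adjusted p, 46, was 28 with stored totals, 19 with the 75th percentile of each array, 87 with spike-ins, 13 without a filter and 28 with the slide row as a block. Leaving out single arrays it was 28 (without sham 3) to 57 (without TULP 1), or 30 (without TULP 3) to 60 with the tested miRNAs kept. The count that also passed 2-fold, 14, was 1 with normexp, 34 without normalization, 53 with spike-ins, 6 with the higher floor, 8 with detection on all 8 arrays and 4 without a filter, and 9 (without TULP 3) to 21 (without TULP 1) leaving out single arrays, or up to 22 with the tested miRNAs kept. Apart from the floor and the filters, the cause of these shifts was not tested. Keeping the 8-array normalization and summing all probes were alternatives chosen after seeing the data.

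Replicate numbers are shared between the groups in the labels. The deviations of same-numbered arrays from their group means correlated at 0.13, -0.10, 0.27 and -0.10, so the numbers were not taken to pair the rats. With the replicate block, the changes were unaltered and the adjusted p was 0.62, 0.234, 0.0922 and 0.0241 for miR-29a-3p, miR-29b-3p, miR-29c-3p and miR-29c-5p, which altered none of these 4 calls. The low signal of miR-29c-5p, 3.17 to 4.30 times its error where detected, limits what can be said of that strand.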
